A study of Mus musculus with 12 samples.

Results

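The MHC class II presentation genes were described in the terminal ileum of 12 female mice, measured on a NanoString nCounter panel, in which colour-coded probe pairs bound to total RNA are counted one by one. The genes were chosen by symbol from a list of 10 (H2-Aa, H2-Ab1, H2-Eb1, H2-Ea-ps, H2-DMa, H2-DMb1, H2-DMb2, H2-Ob, Cd74 and Ciita). The deposited table held 547 genes and 9 of these 10, since H2-DMb1 was not among its rows, and 8 of the 9 passed the filter on low signal together with 449 other genes.

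The mice fell into 4 groups of 3, and in all of them it was the mothers that had received the cecal contents. IL10_STAT mice carried the genotype label IL10, described in the design text as IL10 deficient, and were pups of mothers given cecal contents that an antibiotic treatment, named STAT, had perturbed. IL10_control mice carried the same genotype label and were pups of mothers given control contents. WT_STAT mice carried the label C57, described as C57BL/6, with STAT mothers, and WT_control mice carried the label C57 with control mothers. The labels gave no age, litter, mother or cage, so mice of a group may share a mother, and each p-value measures the spread between these samples. Il10 itself had a signal of 24.9 to 74.4 in the 6 IL10-labelled samples and of 0 to 1.02 in the 6 C57-labelled samples, against the direction of the genotype label, and where its probe sits on the transcript is not known here. Groups are named here by their labels, and every direction is between labels.

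MHC class II molecules display peptides from ingested proteins on the surface of dendritic cells, macrophages and B cells, where CD4 T cells read them. An alpha and a beta chain pair in the endoplasmic reticulum around the invariant chain, encoded by Cd74, which blocks the groove and steers the complex to endosomes. There the H2-M heterodimer (H2-DMa with an H2-DMb chain) removes the last fragment of the invariant chain and edits the bound peptide, and H2-O, whose beta chain is H2-Ob, restrains H2-M, mainly in B cells. Transcription of these genes depends on the coactivator Ciita, which binds no DNA itself but docks on factors assembled on the X and Y boxes of class II promoters. Interferon-gamma induces Ciita, also in cells such as gut epithelium that otherwise show little class II.

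Promoter sequence is shown because the X and Y boxes are where Ciita acts. A link between these sequences and the differences between groups was not tested. RefSeq promoters on GRCm38.p6 (250 bases before to 50 after a start site) were at hand for 5 of the 9 genes, with 6 start sites. The 150 bases before the start site follow, written 5′ to 3′ on the gene's strand. Capitals mark the Y box core TGATTGG and, upstream of it, an X box pattern of CTNNNAAC, any 2 bases and then ATGATG (N is any base), or in H2-Aa the sequence TGACGTCA at the place of the X2 box.

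H2-Aa (chr17:34287824-34287973, minus strand): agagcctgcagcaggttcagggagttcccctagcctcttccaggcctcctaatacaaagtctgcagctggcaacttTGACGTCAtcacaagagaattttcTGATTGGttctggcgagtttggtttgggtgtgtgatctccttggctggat

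H2-Eb1 (chr17:34305717-34305866, plus strand): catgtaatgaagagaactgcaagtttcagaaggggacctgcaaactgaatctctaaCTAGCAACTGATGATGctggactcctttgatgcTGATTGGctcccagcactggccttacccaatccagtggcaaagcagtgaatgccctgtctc

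H2-DMb2 (chr17:34145099-34145248, plus strand): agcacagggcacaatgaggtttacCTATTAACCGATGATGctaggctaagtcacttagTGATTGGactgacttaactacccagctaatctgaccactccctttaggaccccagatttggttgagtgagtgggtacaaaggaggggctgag

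H2-Ob (chr17:34238755-34238904, plus strand): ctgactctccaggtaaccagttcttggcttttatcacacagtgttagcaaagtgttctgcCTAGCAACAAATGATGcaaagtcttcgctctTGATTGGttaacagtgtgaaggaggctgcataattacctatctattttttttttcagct

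In H2-Eb1, H2-DMb2 and H2-Ob the X box pattern began 94, 126 and 90 bases before the start site, and 17, 18 and 15 bases lay between it and the Y box. In H2-Aa 16 bases lay between TGACGTCA and the Y box. Neither of the 2 H2-DMa start sites at hand held any of these letters in its window. The 150 bases before them ended at 34122831 and 34125517, inside the gene's span of 34119693 to 34139101. The rest of that span was not searched, so the boxes may lie elsewhere in H2-DMa. Both strands were searched, the X box pattern was written after these promoters had been read, and the motifs do not overlap. Of all 32851 promoter windows of the table, 7.82% held the Y box core, 1.79% held TGACGTCA and 0.0304% held the X box pattern. Both the X box pattern and the Y box core were in 8 windows, which belonged to H2-DMb1, H2-DMb2, H2-Eb1, H2-Ob and, with 2 windows each, Nubp2 and Spsb3.

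The libraries differed in total counts. Counts above background, worked out from the step between values of a sample, were 541733 to 717454 in IL10_STAT, 398625 to 506141 in IL10_control, 191012 to 276579 in WT_STAT and 146690 to 365850 in WT_control. The IL10-labelled and C57-labelled ranges did not overlap, so depth and genotype label cannot be told apart. The 8 tested class II genes differed widely in counts. The lowest value was 19.5 counts above background for H2-Ob and 36.5 for Ciita, while the lowest for Cd74 was 3824.5 counts. In RNA from whole tissue, more cells of a type and more RNA per cell cannot be told apart.

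H2-Ea-ps, the alpha chain gene of the I-E molecule, was at or near 0 in all 12 samples. C57BL/6 and other mice of the b haplotype carry a deletion at this locus and make no I-E alpha chain, and RefSeq lists the gene (now H2-Ea, chromosome 17, 34341952 to 34344645) as a transcribed pseudogene. Its signal was 3.43, 0 and 0 in IL10_STAT, 0, 1.38 and 0.361 in IL10_control, and 0 in each of the 3 WT_STAT and 3 WT_control samples. The highest of these was 4.875 counts above background. The IL10-labelled samples were thus as low for this gene as the C57-labelled samples within a few counts, while the partner beta chain H2-Eb1 was well above background in every sample.

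Class II genes took up a larger share of the panel signal in IL10-labelled than in C57-labelled ileum. The summed signal of the 9 genes was 22.8%, 23.4% and 24.5% of the panel in IL10_STAT and 25.6%, 22.1% and 24.6% in IL10_control. It was 8.75%, 7.16% and 7.27% in WT_STAT and 3.99%, 4.25% and 6.43% in WT_control. The share does not depend on how a sample was scaled, and its ranges did not overlap between any IL10-labelled and any C57-labelled group, nor between WT_STAT and WT_control. The highest WT_control share belonged to the library with the fewest counts (WT_control 3). Cd74 alone held 11.2% to 12.4% in IL10_STAT, 11.3% to 13.1% in IL10_control, 3.13% to 3.89% in WT_STAT and 1.78% to 2.61% in WT_control. By signal it ranked 1 or 2 among the 547 genes in the IL10-labelled samples, 4 or 5 in WT_STAT and 5 or 10 in WT_control.

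**Figure D1:**
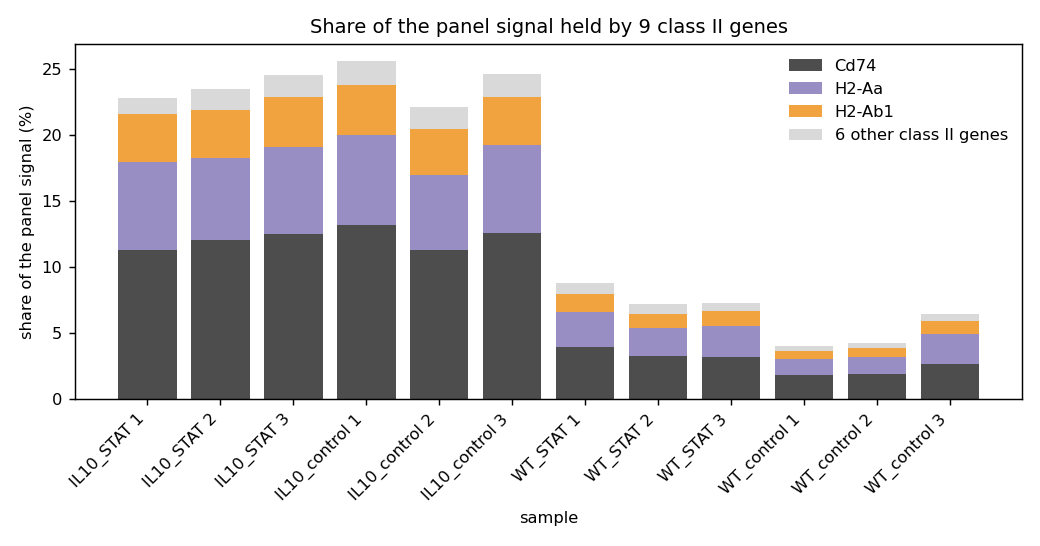
Share of the panel signal (%, vertical axis) held by Cd74, H2-Aa, H2-Ab1 and the 6 other class II genes in each of the 12 samples (horizontal axis). The 6 IL10-labelled samples lie between 22.1% and 25.6%, the WT_STAT samples between 7.16% and 8.75%, and the WT_control samples between 3.99% and 6.43%.

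All 8 tested class II genes had the same order of group means, with IL10_control highest, then IL10_STAT, WT_STAT and WT_control. The outer steps of this order were common on the panel. Over all genes, 78.8% were lower in IL10_STAT than in IL10_control, and 79.6% were higher in WT_STAT than in WT_control. The share of all genes in the full order was not computed. For H2-Ob the middle step was small, at a mean of 129 in IL10_STAT against 122 in WT_STAT. Between neighbours in this order, IL10_STAT against IL10_control passed the test for none of the 8 genes, IL10_STAT against WT_STAT passed for 6, and WT_STAT against WT_control for none. The comparisons used limma on log2(signal + 1) in 1 fit over the 4 groups, with a gene counted as passing below 0.05 after Benjamini-Hochberg adjustment over the 457 genes. Differences are log2 values with the standard error of the fit.

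**Figure D2:**
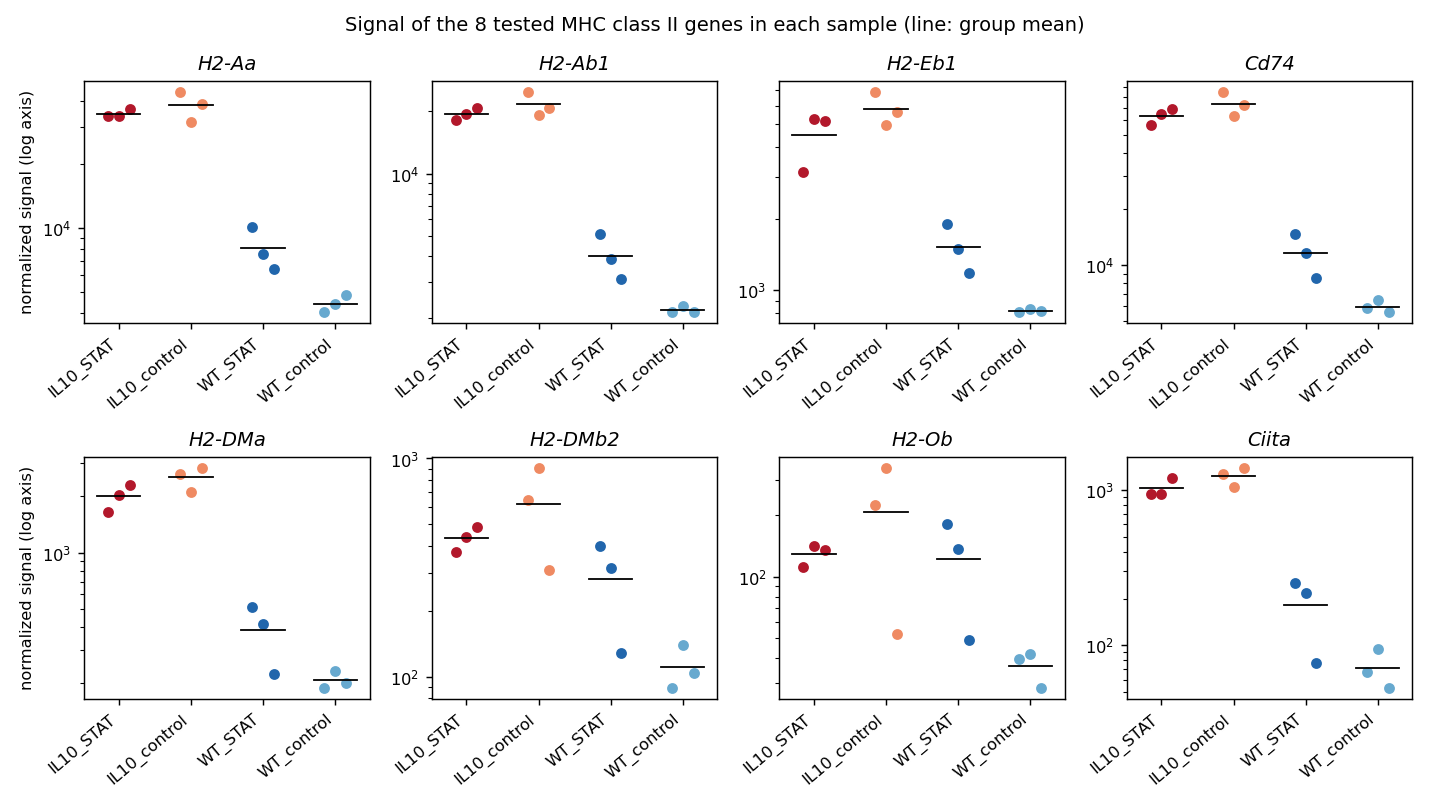
Normalized signal (vertical axis, logarithmic) of the 8 tested class II genes in each sample, by group (horizontal axis), with a line at the group mean. H2-Aa, H2-Ab1, H2-Eb1, Cd74, H2-DMa and Ciita separate the IL10-labelled from the C57-labelled samples, while H2-DMb2 and H2-Ob spread widely within IL10_control and WT_STAT.

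Under the control inoculum, class II genes were 4.34-fold to 17.2-fold higher in IL10-labelled than in C57-labelled ileum, and all 8 rose. This comparison asks how the genotype label changed the ileum when mothers had received control contents. Among all 457 genes, 53.6% rose, so a rise was common on this panel. The median log2 difference was 3.20 over the 8 genes and 1.01 over the panel, and for 8 of 8 genes every IL10_control sample lay above every WT_control sample, as it did for 56.0% of all genes.

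The chains of the I-A molecule and the I-E beta chain rose. H2-Ab1, the I-A beta chain (chromosome 17, 34263227 to 34269418), had a signal of 24836, 19293 and 20761 in IL10_control, against 2125, 2285 and 2139 in WT_control. Its difference was 3.30 ± 0.21 (9.85-fold, n = 3 each, limma adjusted p = 9.17e-07). H2-Aa, the I-A alpha chain (chromosome 17, 34282744 to 34287823), had 43870.2, 31746 and 38428 in IL10_control and 4007, 4387 and 4817 in WT_control. It rose by 3.10 ± 0.21 (8.58-fold, limma adjusted p = 1.18e-06). H2-Eb1, the I-E beta chain (chromosome 17, 34305867 to 34316674), had 6843, 4957 and 5631 in IL10_control and 807, 836 and 817 in WT_control. It rose by 2.81 ± 0.25 (7.02-fold, limma adjusted p = 7.43e-06). For each of the 3 chains the lowest IL10_control sample was several times the highest WT_control sample.

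The invariant chain gene Cd74 (chromosome 18, 60803849 to 60812652) and the regulator Ciita (chromosome 16, 10480014 to 10531064) lie outside the MHC on chromosome 17 and rose with it. Cd74 had 84741, 63052 and 72219.6 in IL10_control, against 5886, 6499 and 5567 in WT_control. The difference was 3.61 ± 0.23 (12.2-fold, limma adjusted p = 9.17e-07). Ciita had 1264, 1041 and 1384 in IL10_control, against 67.4, 95.2 and 53.1 in WT_control. Its difference of 4.11 ± 0.40 (17.2-fold, limma adjusted p = 1.01e-05) was the largest of the 8.

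The peptide editing genes split. H2-DMa, the H2-M alpha chain (chromosome 17, 34119693 to 34139101), had 2622, 2097 and 2839 in IL10_control, against 189, 234 and 202 in WT_control. It rose by 3.59 ± 0.29 (12-fold, limma adjusted p = 3.92e-06). H2-DMb2, an H2-M beta chain (chromosome 17, 34143229 to 34151553), had 646, 907 and 308 in IL10_control, against 89.1, 140.2 and 104 in WT_control, and rose by 2.36 ± 0.46 (5.14-fold, limma adjusted p = 0.000992). H2-Ob, the H2-O beta chain (chromosome 17, 34238905 to 34245908), had 226, 343 and 52.3 in IL10_control, against 39.4, 41.9 and 28.4 in WT_control, and rose by 2.12 ± 0.64 (4.34-fold, limma adjusted p = 0.0136). For both genes IL10_control 2 was highest and IL10_control 3 lowest, at 907 and 308 for H2-DMb2 and at 343 and 52.3 for H2-Ob, while H2-DMa was highest in IL10_control 3. H2-Ob did not pass under median centring of the samples (0.95, adjusted p = 0.0893), after quantile normalization (0.57, adjusted p = 0.349), without IL10_control 1 (1.87, adjusted p = 0.0545) or without IL10_control 2 (1.57, adjusted p = 0.0612). Because H2-DMb1 and H2-DMb2 are close copies and the probe sequence is not known here, signal from H2-DMb1 in the H2-DMb2 row cannot be told apart.

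Under the STAT inoculum the same comparison gave smaller differences, and 6 of the 8 genes rose where 40% of all genes did. The median was 2.22 over the 8 genes and 0.50 over the panel. The 6 genes had groups that did not overlap, as 47.3% of all genes did with IL10_STAT higher. Cd74 had 56689.5, 64778 and 68611 in IL10_STAT, against 14726, 11623 and 8470.0 in WT_STAT, a difference of 2.48 ± 0.23 (5.58-fold, limma adjusted p = 1.55e-05). Ciita had 940.5, 933 and 1192 in IL10_STAT, against 251, 216 and 77.1 in WT_STAT, a difference of 2.65 ± 0.40 (6.26-fold, limma adjusted p = 0.000352). Both genes separated the groups with every sample, and WT_STAT 3 was the lowest of its group for each.

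H2-Ab1 had 18098, 19525 and 20878 in IL10_STAT, against 5095, 3839.6 and 3085 in WT_STAT (2.31 ± 0.21, 4.96-fold, limma adjusted p = 1.55e-05). H2-Aa had 33896, 33728 and 36451 in IL10_STAT, against 10096, 7589.6 and 6447 in WT_STAT (2.13 ± 0.21, 4.39-fold, limma adjusted p = 2.39e-05). Every IL10_STAT sample lay above every WT_STAT sample for both I-A chains. H2-Eb1 had 3136, 5249.9 and 5151 in IL10_STAT, against 1898, 1499 and 1184 in WT_STAT (1.55 ± 0.25, 2.93-fold, limma adjusted p = 0.000554). IL10_STAT 1 stood well below the other 2 IL10_STAT samples for H2-Eb1 and for no I-A chain to that degree.

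H2-DMa had 1657, 2032 and 2297 in IL10_STAT, against 513, 416 and 226 in WT_STAT, and rose by 2.44 ± 0.29 (5.42-fold, limma adjusted p = 9.20e-05). H2-DMb2 had 376, 437 and 487 in IL10_STAT and 397, 315 and 129.5 in WT_STAT, which overlap (0.76 ± 0.46, limma adjusted p = 0.194, 95% interval -0.24 to 1.77). H2-Ob had 111, 142 and 135 in IL10_STAT and 182, 136 and 48.8 in WT_STAT (0.27 ± 0.64, limma adjusted p = 0.746, 95% interval -1.13 to 1.67). The H2-Ob difference turned to -0.26 under median centring of the samples, -0.36 after quantile normalization, -0.08 with array weights and -0.29 without WT_STAT 3. H2-DMb2 and H2-Ob were the 2 genes that did not pass.

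**Figure D3:**
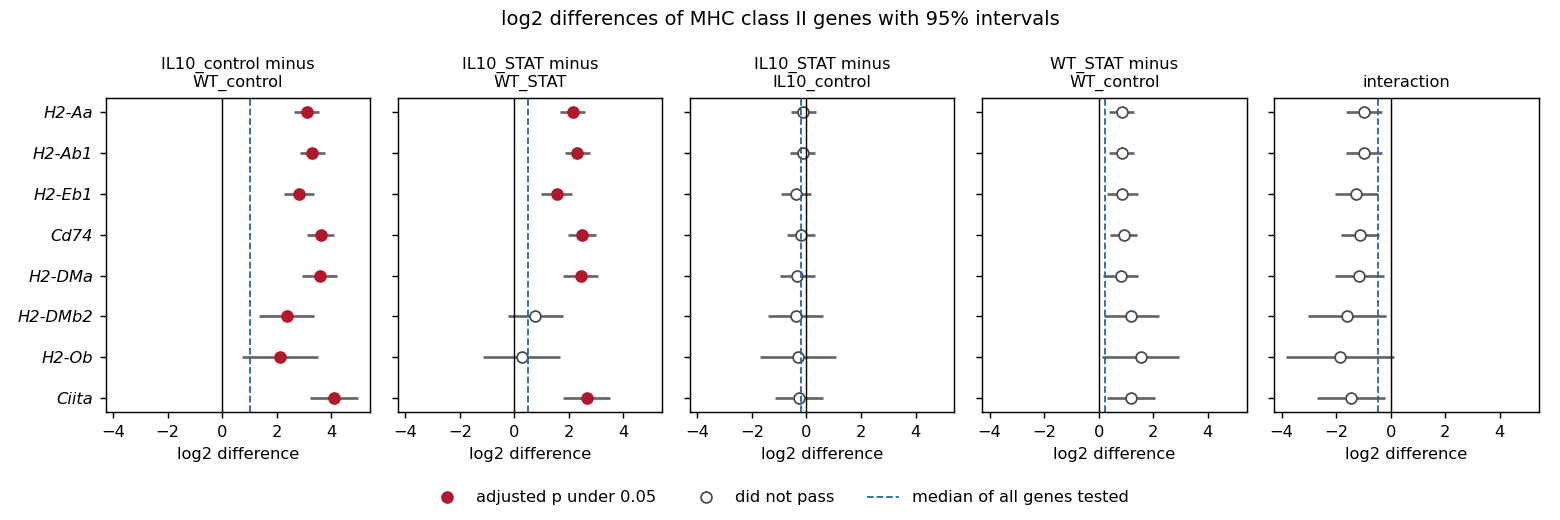
log2 differences (horizontal axis) of the 8 tested class II genes (vertical axis) in 5 comparisons, with 95% intervals of the limma fit. Filled points passed at an adjusted p under 0.05, which are 8 genes in IL10_control minus WT_control and 6 in IL10_STAT minus WT_STAT, and the dashed line is the median of all 457 genes.

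The scaling of the samples bears on the size of these differences. Centring each sample on its median moved the panel median of IL10_control minus WT_control to -0.16, against 1.01 as deposited, and the median over the class II genes to 2.03. There 7 of 8 class II genes passed, with Cd74 at 2.44, H2-Ab1 at 2.13 and Ciita at 2.94. Passing was common on the panel, at 242 to 337 genes over the alternative settings, of which centring is 1. For IL10_STAT minus WT_STAT the panel median moved to -0.02 and the class II median to 1.70, with 6 of 8 genes passing. Here 221 to 328 genes of the panel passed over the same settings.

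In IL10-labelled mice, STAT against control inoculum gave no class II gene that passed. This comparison asks what the mothers' perturbed contents changed in IL10-labelled pups. The 8 differences lay between -0.39 and -0.12 with a median of -0.29, near the panel median of -0.22, and 8 of 8 were below 0, as were 78.8% of all genes. For 0 of 8 genes did all IL10_STAT samples lie below all IL10_control samples, which 21.2% of all genes showed. No gene of the panel passed in either direction (0%).

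The 95% intervals are for single genes, without adjustment and on the deposited scaling. They take the samples as independent, although mice of a group may share a mother. For H2-Aa the difference was -0.12 ± 0.21 (95% interval -0.59 to 0.34, limma adjusted p = 0.917), for H2-Ab1 -0.14 ± 0.21 (-0.61 to 0.32, limma adjusted p = 0.903) and for Cd74 -0.20 ± 0.23 (-0.70 to 0.29, limma adjusted p = 0.879). H2-Eb1 differed by -0.39 ± 0.25 (-0.95 to 0.17) and H2-DMa by -0.34 ± 0.29 (-0.98 to 0.30). The widest intervals belonged to Ciita (-1.14 to 0.61), H2-DMb2 (-1.40 to 0.61) and H2-Ob (-1.71 to 1.09), with an error shared over the 4 groups of the fit. At an unadjusted p under 0.05 the count was also 0 of 8, where 6.13% of all genes were lower and 0.656% higher. H2-Aa, H2-Ab1, Cd74 and Ciita turned to differences above 0, of 0.16, 0.13, 0.07 and 0.01, under median centring of the samples.

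In C57-labelled mice, all 8 class II genes were higher with STAT by 0.81 to 1.54, but 0 of 8 passed over all genes. Only 0.875% of the panel rose in this comparison. The class II median was 0.90 and the panel median 0.24, and 79.6% of all genes had a difference above 0. Each of the 8 genes had an unadjusted p under 0.05, as 16.8% of all genes did with WT_STAT higher, with Cd74, H2-Aa and H2-Ab1 at a limma adjusted p of 0.0896. For Cd74 the difference was 0.92 ± 0.23 (1.89-fold), for H2-Ab1 0.85 ± 0.21 (1.80-fold), for H2-Aa 0.85 ± 0.21 (1.80-fold) and for H2-Eb1 0.87 ± 0.25 (1.83-fold, adjusted p = 0.115). Ciita differed by 1.20 ± 0.40 (2.29-fold, adjusted p = 0.144), H2-DMa by 0.81 ± 0.29 (1.75-fold, adjusted p = 0.167), H2-DMb2 by 1.21 ± 0.46 (2.31-fold, adjusted p = 0.191) and H2-Ob by 1.54 ± 0.64 (2.91-fold, adjusted p = 0.238).

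WT_STAT 3 decided these calls. For H2-Aa, H2-Ab1, H2-Eb1, H2-Ob and Cd74 every WT_STAT sample lay above every WT_control sample, so 5 of 8 genes did not overlap, against 15.8% of all genes with WT_STAT higher. For Ciita, H2-DMa and H2-DMb2 WT_STAT 3 lay inside the WT_control range, at 77.1 for Ciita against 53.1 to 95.2 in WT_control. WT_STAT 1 was highest and WT_STAT 3 lowest for 8 of 8 genes. The total signal of the panel had the same order, at 379011, 358264 and 270388 in WT_STAT 1, 2 and 3. The share of all genes in this order was not computed. Leaving out the lowest sample of the higher group can only widen a difference. Without WT_STAT 3, 7 of 8 genes passed, all but H2-Ob, with Cd74 at 1.13 (limma adjusted p = 0.0224) and Ciita at 1.72 (limma adjusted p = 0.0189), and 44 genes of the panel did. WT_STAT 3 had the fewest counts of its group (191012). Under median centring the 8 differences were 0.44 to 1.17, and 0 of 8 passed.

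The 2 STAT effects were compared by the interaction, which was below 0 for 8 of 8 class II genes but passed for none. It was below 0 for 86.2% of all genes, and 0% of the panel passed. At an unadjusted p under 0.05, 7 of 8 class II genes and 21% of all genes were lower. The values were -0.97 ± 0.30 for H2-Aa, -0.99 ± 0.30 for H2-Ab1, -1.26 ± 0.36 for H2-Eb1 and -1.13 ± 0.32 for Cd74 (limma adjusted p = 0.104 to 0.108). They were -1.15 ± 0.41 for H2-DMa, -1.46 ± 0.56 for Ciita, -1.60 ± 0.64 for H2-DMb2 and -1.85 ± 0.90 for H2-Ob (limma adjusted p = 0.172 to 0.263). The class II median was -1.20 and the panel median -0.48. The same contrast is also the difference between the 2 genotype effects given above. Without WT_STAT 3, 7 of 8 genes passed, all but H2-Ob, and with array weights 8 of 8 did. Of the panel of 457 genes, 0 to 58 passed without single samples and 132 with array weights. The fit of the weights stopped before convergence. Under median centring the values were -1.20 to -0.32, with a panel median of 0.17 and 0 of 8 passing.

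The balance among class II genes was read from ratios of 2 genes within a sample, which do not depend on the sample's scaling. The size of a ratio also holds the efficiency of 2 probes, so only its change between samples is read. The mean log2 ratio of 6 IL10-labelled and 6 C57-labelled samples was compared for 7 ratios by an exact two-sided permutation test, for which 0.00216 is the smallest p possible, with adjustment over the 7. The inocula were pooled in this test, and the difference within each inoculum is given beside it.

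H2-Eb1 was lower relative to H2-Ab1 in every IL10-labelled sample. H2-Eb1 signal was 17.3%, 26.9% and 24.7% of H2-Ab1 in IL10_STAT and 27.6%, 25.7% and 27.1% in IL10_control. It was 37.3%, 39.0% and 38.4% in WT_STAT and 38.0%, 36.6% and 38.2% in WT_control. The C57-labelled samples lay within 3 percentage points of each other whatever the inoculum, and the highest IL10-labelled sample was below all of them. The log2 ratio differed by -0.63 between IL10-labelled and C57-labelled samples (-0.76 under STAT and -0.49 under control, exact permutation p = 0.00216, adjusted p = 0.00379).

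H2-Aa relative to H2-Ab1 and Cd74 relative to H2-Ab1 moved less, in opposite directions, without overlap. H2-Aa was 173% to 187% of H2-Ab1 in IL10_STAT, 165% to 185% in IL10_control, 198% to 209% in WT_STAT and 189% to 225% in WT_control (log2 difference -0.19, exact permutation adjusted p = 0.00379). Cd74 was 313% to 332% of H2-Ab1 in IL10_STAT, 327% to 348% in IL10_control, 275% to 303% in WT_STAT and 260.3% to 284% in WT_control (0.24, exact permutation adjusted p = 0.00379). These were the smallest of the shifts that passed. Under STAT and control the differences were -0.18 and -0.20 for H2-Aa, and 0.17 and 0.31 for Cd74.

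Ciita relative to H2-Ab1 was 4.78% to 5.71% in IL10_STAT, 5.09% to 6.67% in IL10_control, 2.5% to 5.64% in WT_STAT and 2.48% to 4.16% in WT_control. The groups overlapped, and the log2 difference was 0.57 (0.34 under STAT and 0.81 under control, exact permutation adjusted p = 0.0303). That call was lost with a pseudocount of 10 and without any of 6 single samples. H2-DMa relative to H2-Ab1 did not pass (0.21, exact permutation adjusted p = 0.0866), with 9.15% to 11% in IL10_STAT, 10.6% to 13.7% in IL10_control, 7.32% to 10.8% in WT_STAT and 8.88% to 10.3% in WT_control. Its log2 difference was 0.13 under STAT and 0.28 under control.

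The genes that partner or restrain H2-DMa were lower relative to it in IL10-labelled samples. H2-DMb2 was 22.7%, 21.5% and 21.2% of H2-DMa in IL10_STAT and 24.6%, 43.3% and 10.8% in IL10_control. It was 77.5%, 75.7% and 57.4% in WT_STAT and 47.2%, 59.8% and 51.6% in WT_control. Every IL10-labelled sample lay below every C57-labelled sample, by -1.45 on the log2 scale (-1.68 under STAT and -1.22 under control, exact permutation adjusted p = 0.00379). H2-Ob was 6.70%, 6.99% and 5.88% of H2-DMa in IL10_STAT, 8.63%, 16.4% and 1.84% in IL10_control, 35.5%, 32.7% and 21.6% in WT_STAT and 20.9%, 17.9% and 14.1% in WT_control. The difference was -1.82 (-2.17 under STAT and -1.47 under control, exact permutation adjusted p = 0.00606), with IL10_control 2 above WT_control 3. Both genes were thus higher in signal but lower relative to H2-DMa in IL10_control than in WT_control.

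**Figure D4:**
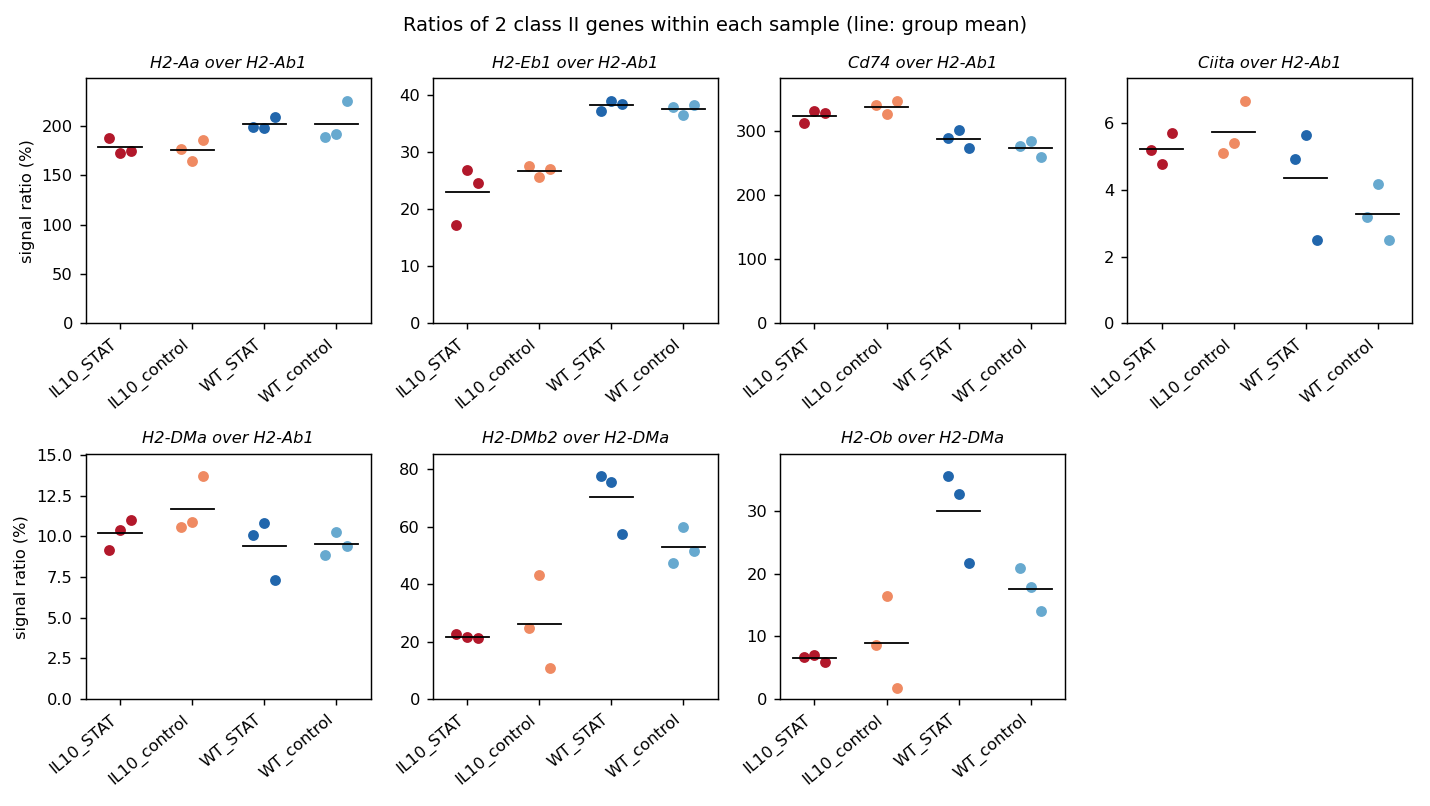
Ratio of the signals of 2 class II genes within a sample (%, vertical axis, from 0), by group (horizontal axis), with a line at the group mean. H2-Eb1 over H2-Ab1 lies at 17.3% to 27.6% in the 6 IL10-labelled samples and at 36.6% to 39.0% in the 6 C57-labelled samples. H2-DMb2 over H2-DMa lies at 10.8% to 43.3% in the IL10-labelled and at 47.2% to 77.5% in the C57-labelled samples.

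The genes nearest to H2-DMb2 and H2-Ob from sample to sample came from the B cell list. Likeness was measured, after these values had been seen, as the root mean square difference of log2 values over the 12 samples, each gene centred on its own mean. The gene nearest to H2-DMb2 was Ikzf3, a lymphocyte transcription factor used as a B cell marker (0.22), and the gene nearest to H2-Ob was Cd22, a B cell lectin (0.32). The nearest gene was another class II gene for H2-Aa (H2-Ab1, 0.12), H2-Ab1 (H2-Aa, 0.12), Cd74 (H2-Ab1, 0.13), H2-DMa (Cd74, 0.15) and Ciita (H2-DMa, 0.30). For H2-Eb1 it was Il2ra, the high-affinity IL-2 receptor chain (0.20).

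Cd22 had 68.9, 95.1 and 98.0 in IL10_STAT, 136, 261 and 46.6 in IL10_control, 104, 94.7 and 23.4 in WT_STAT and 14.9, 20.1 and 13.8 in WT_control. Ms4a1, the gene of the CD20 antigen, was likewise highest in IL10_control 2 (855) and low in IL10_control 3 (62.5) and WT_STAT 3 (61.6). IL10_control 3 and WT_STAT 3, the samples lowest for H2-Ob in their groups, were also the lowest for both of these B cell genes. WT_STAT 3 was, however, the lowest of its group for every tested class II gene. The IL10_control pattern was not particular to B cell genes. Mean log2(signal + 1) in IL10_control 1, 2 and 3 was 7.45, 7.87 and 5.70 for B cell markers. T cell markers had 7.41, 7.68 and 7.04, macrophage and monocyte markers 8.21, 8.33 and 7.89, and neutrophil markers 7.46, 10.4 and 5.26. Dendritic cell markers were lowest in IL10_control 3 but highest in IL10_control 1. WT_STAT 3 was lowest of its group for all of these lists. Cd74 in IL10_control 3 (72219.6) was in contrast the middle value of its group. Not every gene of the B cell list followed this pattern. Blnk had its highest group mean in IL10_STAT (1871), against 1568 in IL10_control. The part of B cell content in the H2-DMb2 and H2-Ob results was not tested.

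**Figure D5:**
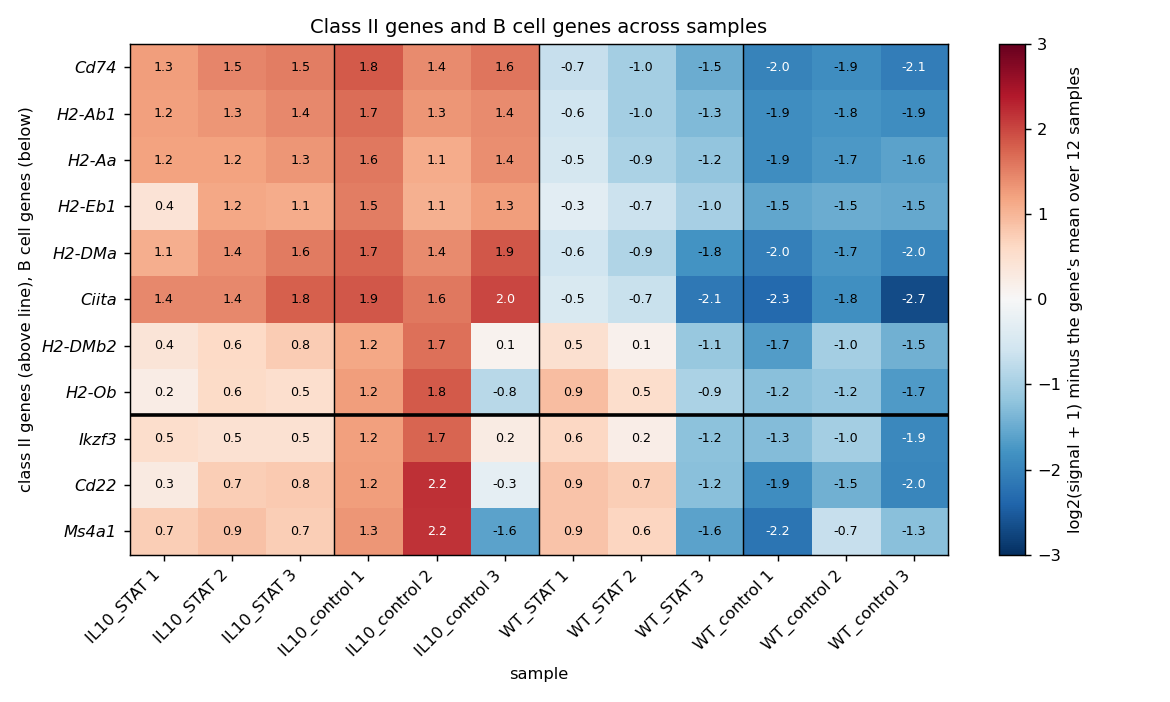
log2(signal + 1) of 8 class II genes and 3 B cell genes (vertical axis) in the 12 samples (horizontal axis), each gene given relative to its own mean over the samples. H2-DMb2 and H2-Ob share with Ikzf3, Cd22 and Ms4a1 the highest value of IL10_control in IL10_control 2, and the lowest values of their groups in IL10_control 3 and WT_STAT 3. WT_STAT 3 is the lowest of its group for the other class II genes too. By mean, T cell, macrophage and neutrophil markers, not shown here, are also highest in IL10_control 2 and lowest in IL10_control 3.

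Over the mean profile of the 8 genes, the 5 nearest of 449 other genes were Itgal, the integrin alpha chain of LFA-1 (0.23), Cybb, a subunit of the phagocyte oxidase (0.27), Fcgr2b, the inhibitory Fc receptor of B cells and myeloid cells (0.28), Icam1, an adhesion ligand of LFA-1 (0.28), and Spn, the leukocyte sialoglycoprotein CD43 (0.29). The median of the 449 genes was 1.12. Itgal had 437, 502 and 578 in IL10_STAT, 558, 632 and 462 in IL10_control, 180.4, 165 and 109.7 in WT_STAT and 81.9, 105 and 51.7 in WT_control, the same order of group levels as the class II genes.

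Of 8 genes of the interferon-gamma route to Ciita on the panel 7 were tested. In IL10_control against WT_control 3 of the 7 rose, where 53.6% of all genes did, and in IL10_STAT against WT_STAT 3 rose, where 40% did, with none lower, so the counts lay near the share over all genes. Among them under control were Socs1, a feedback inhibitor of cytokine signalling (2.76 ± 0.22, limma adjusted p = 3.92e-06), and Irf1, a transcription factor that acts on Ciita. Irf1 had 4416, 3717 and 4963 in IL10_control, against 1766, 1949 and 1389 in WT_control (1.36 ± 0.21, limma adjusted p = 0.000182). Every IL10_control sample lay above every WT_control sample for Irf1. The list median was 0.29 against the panel median of 1.01, with the 2 receptor chains and 2 Janus kinases at -0.22 (Ifngr2) to 0.29 (Jak1), none of which passed. Ifng itself did not pass the filter, with 10.5, 33.2 and 27.9 in IL10_STAT, 9.59, 12.4 and 6.14 in IL10_control, 0, 1.46 and 0 in WT_STAT and 0 in each WT_control sample.

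With STAT against control, 0 of these 7 genes passed in either genotype label, and Irf1 differed by 0.23 in C57-labelled mice, beside 1.20 for Ciita in C57-labelled mice. Of other regulators, 5 of a list of 15 were on the panel, and all 5 rose in IL10_control against WT_control, where 53.6% of all genes did, among them Il10 itself. Irf8, a factor of dendritic cells and B cells, rose by 1.59 ± 0.21 and Prdm1, a repressor of Ciita in plasma cells, by 2.01 ± 0.34. In IL10_STAT against WT_STAT 3 of the 5 rose, where 40% of all genes did, and in WT_STAT against WT_control 1 did, Irf4 (1.72 ± 0.25, limma adjusted p = 0.0121), which acts in B cell activation and plasma cell formation. No gene of the panel, Irf4 included, passed in that comparison under median centring, quantile normalization, scaling on broadly expressed genes or a fit of only the 2 groups.

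Of the processing proteases only 2 of a list of 9 were on the panel. Ctsc, a lysosomal dipeptidyl peptidase, rose in both genotype comparisons, by 0.68 ± 0.24 under control (limma adjusted p = 0.0315). Ctss, which trims the invariant chain, differed by 0.38 and did not pass (limma adjusted p = 0.154). Among 11 tested genes of the contact between presenting cell and CD4 T cell, 10 rose in IL10_control against WT_control (53.6% of all genes) and 9 in IL10_STAT against WT_STAT (40% of all genes), and 0 passed in either STAT comparison. Their medians were 2.54 and 2.19 in these genotype comparisons, beside panel medians of 1.01 and 0.50. The costimulatory ligand Cd86 rose by 1.71 ± 0.22, Cd274 (PD-L1) by 2.89 ± 0.37, and Cd4, the co-receptor that binds class II, by 2.12 ± 0.27 under control. Ctla4 had 143, 148 and 100 in IL10_control, against 1.36, 2.39 and 2.18 in WT_control (5.46 ± 0.46, limma adjusted p = 5.37e-06).

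Markers of B cells, macrophages, dendritic cells, T cells and neutrophils were followed beside the class II genes. In IL10_control against WT_control, where 53.6% of all genes rose, 8 of 12 tested B cell genes, 10 of 11 macrophage and monocyte genes, 4 of 5 dendritic cell genes, 9 of 9 T cell genes and 5 of 5 neutrophil genes rose, with medians of 2.21, 2.02, 1.84, 2.30 and 4.77 against the panel median of 1.01. In IL10_STAT against WT_STAT, where 40% of all genes rose and 11.6% fell, 1, 7, 2, 8 and 4 of them rose, and 1 macrophage and 1 dendritic cell gene fell. The medians there were 0.53 for B cell, 1.07 for macrophage and monocyte, 0.40 for dendritic cell, 1.33 for T cell and 4.87 for neutrophil genes, beside 2.22 for class II and 0.50 for the panel. In each STAT comparison none of the 5 lists had a gene that passed. In C57-labelled mice their medians were 1.34 for B cell, 0.60 for macrophage and monocyte, 1.03 for dendritic cell, 0.38 for T cell and -0.02 for neutrophil genes, beside 0.90 for class II. For epithelium only Muc1 of 12 listed genes was on the panel, so epithelial content was not tested.

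The summed signal of the 13 B cell genes on the panel was 3284 to 3301 in IL10_STAT, 2262 to 4840.0 in IL10_control, 1788 to 2932 in WT_STAT and 1349 to 2259 in WT_control. For 11 macrophage and monocyte genes it was 3383 to 4144 in IL10_STAT, 3513 to 4852 in IL10_control, 1448 to 2359 in WT_STAT and 1143 to 1372 in WT_control. For 6 dendritic cell genes it was 647 to 855 in IL10_STAT, 744 to 1000.4 in IL10_control, 509 to 719 in WT_STAT and 362 to 499 in WT_control. For 10 T cell genes it was 1156 to 1363 in IL10_STAT, 1418 to 2277 in IL10_control, 470.0 to 621 in WT_STAT and 305 to 514 in WT_control. For 5 neutrophil genes it was 1819 to 7495 in IL10_STAT, 334 to 29761 in IL10_control, 6.37 to 48.2 in WT_STAT and 15 to 20.4 in WT_control.

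Among the defining markers, Cd79a was at 0 in 3 C57-labelled samples, Cr2 in 2 and Pax5 in 1, and Tnfrsf13c in 1 IL10-labelled sample. Marco was at 0 in 5 C57-labelled samples, Clec4a4 in 3, Cd5 in 1, Cd8b1 in 3 and in 1 IL10-labelled sample, S100a9 in 4, Camp in 3, Cxcr2 in 2 and S100a8 in 1. Itgax, an integrin of dendritic cells and macrophages, had 310.4, 311 and 306 in IL10_control, against 65.6, 77.4 and 37.1 in WT_control (2.41 ± 0.35, limma adjusted p = 0.000135). The part of cell content in the class II differences was not tested.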

How the data were processed

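Total RNA of the terminal ileum was hybridised to reporter and capture probes of a NanoString nCounter panel, per the labels' protocols. The authors deposited 1 table of a linear signal, which has 0 columns of no sample. Software, background and scaling were not given in the labels. Values of a sample differed by multiples of 1 step, which was used to work out counts above background.

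A gene was tested (457 of 547) if 3 or more of the 12 samples reached a signal of 20. Tests used limma 3.58.1 in R 4.3.3 on log2(signal + 1), checked on simulated data, and scipy 1.17.1 for exact permutation tests. Group labels came from the sample descriptions, and replicate numbers follow the order of the records. The alternatives changed scaling, pseudocount, floor, filter, sample weights, the groups fitted and single samples. Members, lists, ratios and tests were chosen with earlier results of these data known. The rule for named genes took every member, up to 4 genes of each list by p in IL10_control minus WT_control (not all are reported here), Ifng, Irf1, Ms4a1 and Itgax, and the 5 genes nearest to the mean class II profile. H2-Ea-ps over H2-Eb1 was not computed, because H2-Ea-ps lay near 0.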

Additional observations from a re-analysis of the deposited data

How the results depend on the processing

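No paired analysis was possible because the labels give the groups no shared replicate numbers. IL10_control minus WT_control gave 7 or 8 of 8 class II genes and IL10_STAT minus WT_STAT gave 6 under the 9 other settings and without any single sample, where the whole panel gave 235 to 337 and 190 to 328 genes. For WT_STAT minus WT_control the count of all genes, 4 as reported, was 0 with median centring, quantile normalization, scaling on 11 broadly expressed genes or only the 2 groups in the fit, 1 with no filter and 83 with array weights, and 0 to 44 without single samples. The count of class II genes, 0 as reported, was 8 with array weights and 0 to 7 without single samples, 7 only without WT_STAT 3. For the interaction the counts were 132 genes and 8 class II genes with array weights, and 0 to 58 genes and 0 to 7 class II genes without single samples. For IL10_STAT minus IL10_control array weights gave 40 genes, all lower, and 0 class II genes. The weights' fit stopped before convergence with a warning in R.

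In IL10_STAT minus IL10_control, differences turned above 0 with median centring for H2-Aa (0.16), H2-Ab1 (0.13), Cd74 (0.072) and Ciita (0.010), with quantile normalization for H2-Aa (0.16) and H2-Ob (0.020), and with scaling on broadly expressed genes for H2-Aa (0.019). H2-Ob ran from -1.11 to 0.24 without single samples there. In IL10_STAT minus WT_STAT H2-Ob was -0.26 centred, -0.36 after quantile normalization and -0.083 with array weights, and -0.29 to 0.65 without single samples. Ciita over H2-Ab1 was 0.45 with a pseudocount of 10 (exact permutation adjusted p = 0.053) and 0.46 to 0.70 without single samples, and H2-DMa over H2-Ab1 ran from 0.13 to 0.26, passing only without IL10_STAT 1 or WT_STAT 2. The causes were not tested. H2-Ob had the fewest counts of the tested class II genes, at 19.5 counts above background in its lowest sample.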
